A study of Mus musculus with 12 samples.

Results

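GABA-A receptor subunits and chloride transporters were followed in interneurons sorted from the embryonic mouse cortex, as 8 genes read by 22 probe sets. The genes were the receptor subunits Gabra2, Gabra3, Gabrb1, Gabrb2, Gabrg1 and Gabrg3 and the cation-chloride cotransporters Slc12a2 and Slc12a5, taken as every probe set whose single gene symbol was 1 of these names. They stood among 11358 genes and 22339 probe sets with 1 symbol. RNA of sorted cells was hybridised to 12 Affymetrix Mouse430_2 arrays, 3 per group. The 4 groups were MGE cells at E18.5, MGE cells at E14.5, CGE cells at E18.5 and CGE cells at E16.5. MGE cells, from the medial ganglionic eminence, carried Nkx2-1-Cre and a YFP reporter at the R26R locus, so that any cell in the cortex with a history of Nkx2-1-Cre was sorted, whatever its type. CGE cells carried a Venus reporter driven by Dlx1 that Nkx2-1-Cre removes, so that cells of the caudal and lateral eminences kept the signal. All groups therefore carried Nkx2-1-Cre, and all came from pooled embryos on a mixed C57BL/6 and CBA background. The study used male and female mice, but the sex of the embryos behind each array is not stated. The labels and methods do not give the number of embryos per array or how pools were split among replicates, so the p-values measure the spread between these arrays.

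GABA-A receptors are chloride channels opened by GABA and are built as a ring of subunits, commonly alpha, beta and gamma. Alpha and beta subunits form the GABA site, gamma subunits take part in synaptic clustering and in the benzodiazepine response, and which subunit is used sets the kinetics and place of the receptor. Whether GABA excites or inhibits depends on chloride: NKCC1, encoded by Slc12a2, loads chloride into the cell and KCC2, encoded by Slc12a5, extrudes it. In immature neurons chloride is high and GABA is depolarising, and migrating cortical interneurons are known to sense ambient GABA and to slow down once KCC2 is present.

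Values are on the log2 scale as deposited, where a difference of 1 is a doubling, and levels are not compared between probe sets of different genes. Replicate arrays correlated at r = 0.972 to 0.995, and MGE E14.5 replicates 1 and 2 were the closest pair, with an SD of differences of 0.231 against 0.376 to 0.518 in the other pairs. A probe set had to exceed the 40th percentile of its own array, a level of 7.10 to 7.17, on at least 3 arrays, and each gene was read by the brightest probe set that passed. In this way 16 of the 22 probe sets and 7 of the 8 genes were tested among 8795 genes, while Gabrb1 was too dim. Gabrg1 passed through the MGE E18.5 arrays alone, so that its passing the filter and its difference are not independent. Of 6 MGE lineage markers, 6 were higher in MGE cells in the early and 5 in the late lineage comparison, and all 6 CGE lineage markers were lower in both. Sst, named after its values were seen, was the exception, with a late difference of 1.20 (limma, adjusted p = 0.204). Lhx6, the MGE interneuron regulator, averaged 12.62 and 12.91 in MGE cells at E18.5 and E14.5, against 10.65 and 10.77 in CGE cells at E18.5 and E16.5. Sp8, a CGE and LGE regulator, averaged 4.54 and 4.31 in MGE cells at E18.5 and E14.5, against 12.02 and 11.91 in CGE cells at E18.5 and E16.5. Prox1, another CGE regulator, averaged 9.02 in MGE E18.5 cells and 4.55 in MGE E14.5 cells, a rise of 4.47 (adjusted p = 3.5e-08), against 11.57 and 11.85 in CGE cells at E18.5 and E16.5.

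Markers of other cells differed between the same groups. The mean of 13 oligodendrocyte precursor markers was 10.56 to 11.22 on the MGE E18.5 arrays and 7.24 to 7.35 on the MGE E14.5 arrays, against 6.05 to 6.41 on the CGE E18.5 and 6.01 to 6.35 on the CGE E16.5 arrays. Of these 13 genes 12 were higher in MGE cells at E18.5 both against CGE cells at E18.5 and against MGE cells at E14.5 (limma, adjusted p under 0.05). Pdgfra, Cspg4 and Olig1 averaged 12.49, 11.39 and 12.19 in MGE E18.5 cells, against 7.96, 7.16 and 8.38 in MGE E14.5 cells and 6.0, 5.92 and 5.77 in CGE E18.5 cells. The mean of 10 tested radial glia and astrocyte markers was 10.30 to 10.56 in MGE cells at E18.5, 8.67 to 9.25 in MGE cells at E14.5, 9.76 to 9.97 in CGE cells at E18.5 and 9.27 to 9.49 in CGE cells at E16.5. Of these 10 genes, 6 were higher and 1, Pax6, lower in MGE cells at E18.5 against CGE cells at E18.5. Pax6, named after its values were seen, averaged 5.56 and 5.82 in MGE cells at E18.5 and E14.5. In CGE cells at E18.5 and E16.5 it averaged 10.81 and 10.10, so it raised the CGE means of the list and lowered the MGE ones. The mean of 7 pan GABAergic genes was 11.02 to 11.36 in MGE cells at E18.5 and 11.75 to 11.85 in MGE cells at E14.5, against 11.73 to 11.93 in CGE cells at E18.5 and 11.88 to 11.95 in CGE cells at E16.5. The mean of 3 tested microglial genes was 6.91 to 7.72 in MGE cells at E18.5, 4.43 to 5.14 in MGE cells at E14.5, 6.98 to 7.97 in CGE cells at E18.5 and 5.17 to 6.32 in CGE cells at E16.5. The part of these cells in the results on receptors and transporters was not tested. In bulk samples, fewer cells of a type and less RNA per cell cannot be told apart.

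The lineages differed most at E18.5, where receptor subunits were higher in MGE cells. In the late lineage comparison, MGE E18.5 minus CGE E18.5, Gabra3, Gabrb2, Gabrg1 and Gabrg3, 4 of the 7 tested genes, were called higher (limma, adjusted p under 0.05), where 13.0% of all 8795 genes were higher and 9.85% lower. Of these 4, Gabrg1 passed the filter through the MGE E18.5 arrays alone, so its call is not independent of its being tested. In the early lineage comparison, MGE E14.5 minus CGE E16.5, Slc12a5 was higher and Gabra2 lower, where 4.16% of genes were higher and 5.90% lower; the effects of lineage and of day cannot be told apart there. With maturation of MGE cells, E18.5 minus E14.5, Gabrb2 and Gabrg1 rose and Slc12a5 fell, where 11.4% of genes rose and 9.77% fell. With maturation of CGE cells, E18.5 minus E16.5, Gabra2 and Gabra3 fell, the Gabra3 call being lost under 12 of 19 alternatives, where 4.49% of genes rose and 6.37% fell. The change of the lineage difference, late minus early, was positive and called for Gabra2, Gabrb2 and Gabrg1, where 6.77% of genes were called positive and 1.88% negative. Under 11 of 18 alternatives the Gabrb2 call was lost. The Gabrg1 calls for this change and with MGE maturation are likewise not independent of its passing the filter. These comparisons share groups of arrays, and their counts are not independent of each other.

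**Figure D1:**
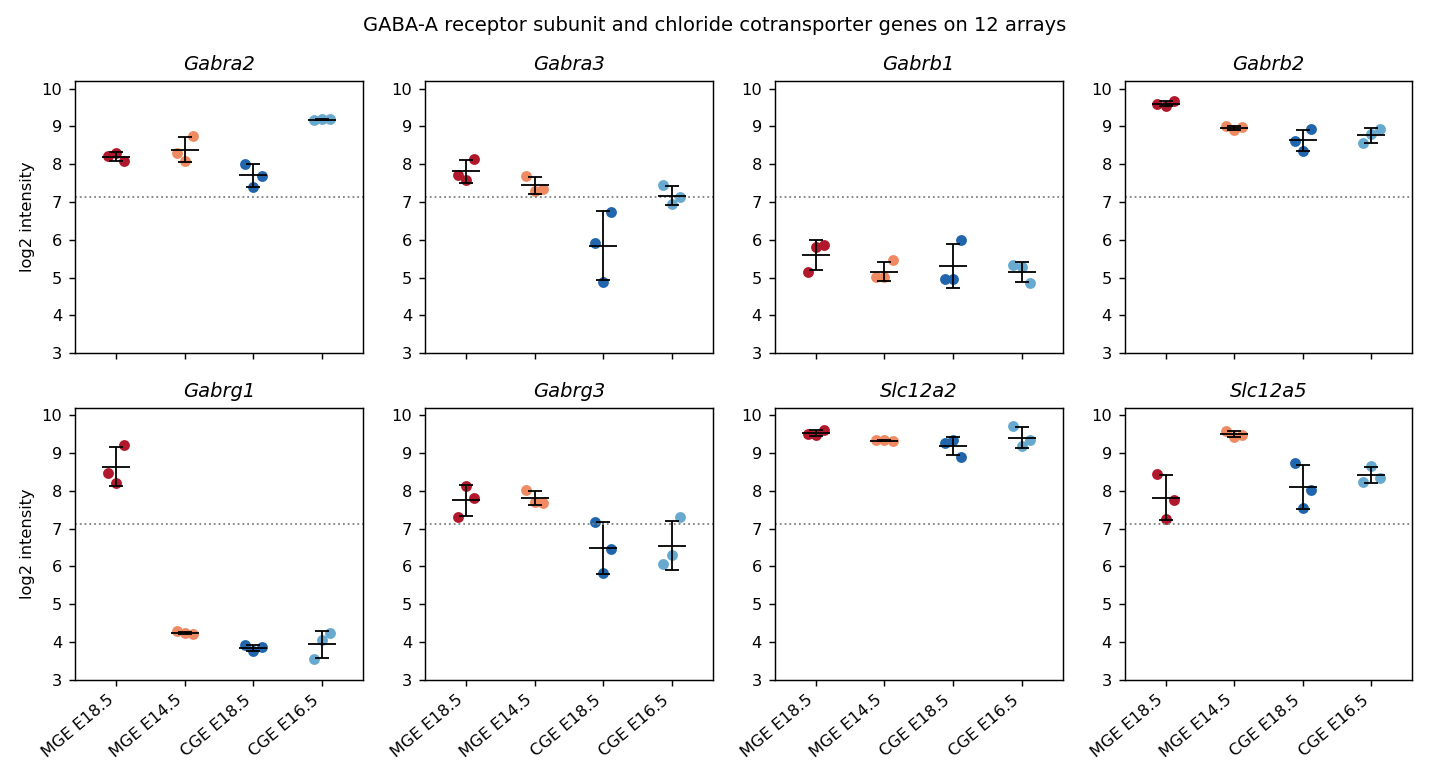
Log2 intensity of the probe set that reads each of the 8 genes, with 1 point per array in each of the 4 groups, a line at the group mean with bars for the SD (n = 3) and a dotted line at the mean filter level. Gabrg1 stood at 8.22 to 9.21 in MGE cells at E18.5 and at 3.54 to 4.28 in the other groups, and Slc12a5 was highest in MGE cells at E14.5.

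Over all 22 probe sets, with dim ones kept in the fit, the late lineage comparison again held the most calls. There 12 of the 22 were higher in MGE cells (limma, adjusted p under 0.05), where 12.5% of all 22339 probe sets were higher and 9.44% lower, and the median difference was 0.78 against -0.03 over all probe sets. In the early lineage comparison 1 was higher and 3 lower, where 3.35% were higher and 4.46% lower, and the median was 0.02 against -0.01. With MGE maturation 8 rose and 1 fell, where 10.6% rose and 7.86% fell, and the median was 0.41 against -0.07. With CGE maturation 4 fell, where 3.46% rose and 4.49% fell, and the median was -0.22 against -0.05. The change of the lineage difference was positive for the 10 called, where 6.58% were called positive and 2.76% negative, and the median was 0.92 against 0.00. Probe sets of a gene read the same RNA and are not replicates.

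**Figure D2:**
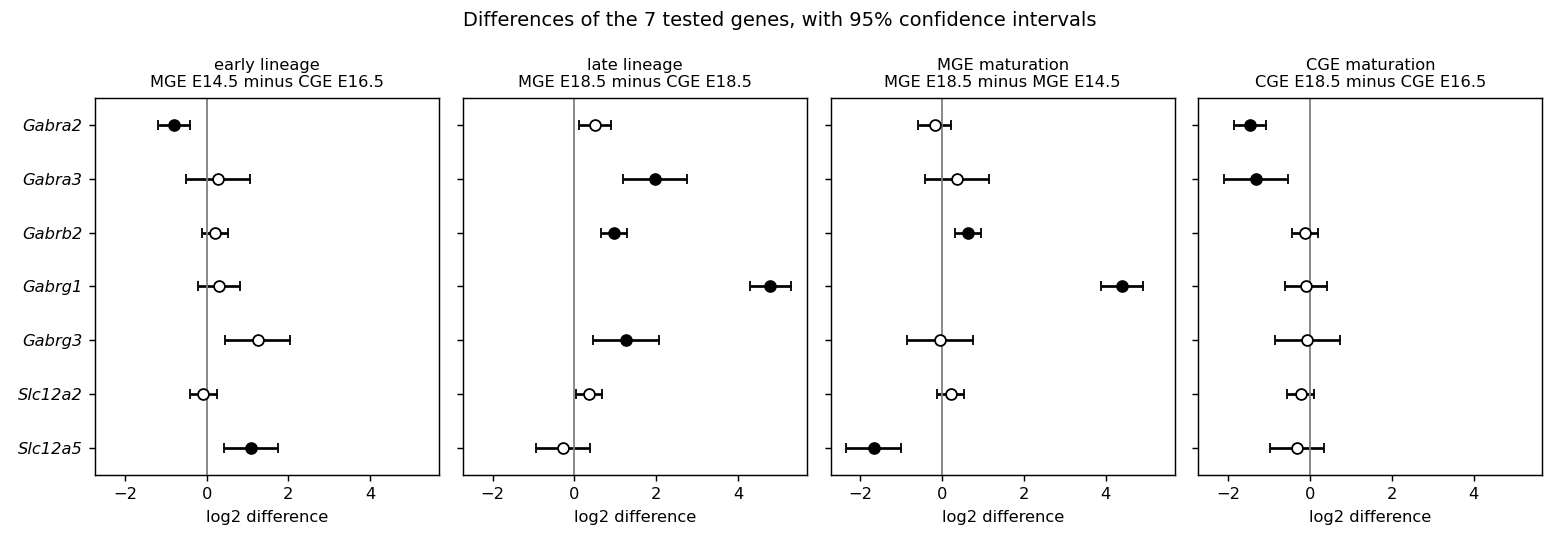
Log2 difference (horizontal axis) of each of the 7 tested genes in the lineage and maturation comparisons, with its 95% confidence interval from limma, filled where the adjusted p was under 0.05. Gabrg1 differed by 4.79 in the late lineage comparison, while the intervals of Slc12a2 stayed within 1 log2 unit of 0.

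Among the gamma subunits, Gabrg1 differed most. It encodes gamma1, a subunit known for its use in restricted brain regions and in glial cells. Gabrg1 gave log2 values of 8.47, 8.22 and 9.21 on the MGE E18.5 arrays and 4.28, 4.23 and 4.22 on the MGE E14.5 arrays, against 3.92, 3.75 and 3.86 on the CGE E18.5 arrays and 3.54, 4.04 and 4.23 on the CGE E16.5 arrays. Only the MGE E18.5 arrays were above the filter level, and every other array lay far below it. Without detection calls, such dim values do not show whether Gabrg1 was expressed in the other groups. The late lineage difference was 4.79 ± 0.23 (SE; limma, adjusted p = 4.33e-08), and with MGE maturation it rose by 4.39 ± 0.23 (adjusted p = 1.36e-07). Both are set against values under the filter level, so their size and p depend on the dim end of the scale. The second probe set showed 7.72, 7.24 and 7.58 in MGE E18.5 cells and 3.37 to 3.69 on all other arrays. With values under the filter level raised to that level, the Gabrg1 difference was 1.50 in the late lineage comparison and 1.51 in MGE maturation, both still called by limma (adjusted p = 0.000118 and 0.000135), and the change of the lineage difference was 1.48 (adjusted p = 0.00421). The early lineage difference was 0.30 ± 0.23 (adjusted p = 0.496) and CGE maturation -0.10 ± 0.23 (adjusted p = 0.827). The oligodendrocyte precursor markers were high on the same 3 arrays, and their part in the Gabrg1 result was not tested.

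Gabrg3, the gamma3 subunit, was higher in MGE cells in the late lineage comparison. It gave 7.31, 8.12 and 7.81 in MGE E18.5 cells and 8.01, 7.71 and 7.68 in MGE E14.5 cells, against 7.18, 5.81 and 6.47 in CGE E18.5 cells and 6.06, 6.30 and 7.30 in CGE E16.5 cells. MGE and CGE arrays did not overlap at either stage, though at E18.5 the lowest MGE value, 7.31, lay close to the highest CGE value, 7.18. The difference was 1.26 ± 0.37 in the late lineage comparison, or 2.40-fold (limma, adjusted p = 0.0273), and 1.25 ± 0.37 in the early one, which missed the threshold (adjusted p = 0.0525) and passed it under 7 of 19 alternatives. Of the 6 CGE arrays 4 were under the filter level, and with dim values raised to that level the differences were 0.59 (adjusted p = 0.0292) in the late and 0.62 (adjusted p = 0.0413) in the early lineage comparison. The change between them was 0.01 ± 0.52, with a 95% interval of -1.12 to 1.14. The late call was lost without MGE E18.5 replicate 2 or 3 or CGE E18.5 replicate 2 or 3, with adjusted p up to 0.0984. Gabrg3 had differences of -0.05 with MGE maturation (95% interval -0.85 to 0.74) and -0.07 with CGE maturation (-0.87 to 0.73), neither called. Its other probe sets lay under the filter level on every array. In the fit of all probe sets, the brighter of them differed by 1.19 in the late (limma, adjusted p = 0.00932) and 0.99 in the early lineage comparison (adjusted p = 0.0511). The dimmer one differed by 0.40 (adjusted p = 0.279) and 0.99 (adjusted p = 0.0319).

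Among the alpha subunits, both Gabra2 and Gabra3 fell with CGE maturation, and Gabra3 was higher in MGE cells at E18.5. Gabra2 encodes alpha2, the subunit typical of the embryonic and early postnatal forebrain. Gabra2 gave 8.22, 8.30 and 8.09 in MGE E18.5 cells and 8.31, 8.10 and 8.76 in MGE E14.5 cells, against 8.02, 7.40 and 7.70 in CGE E18.5 cells and 9.16, 9.19 and 9.19 in CGE E16.5 cells. CGE E16.5 arrays were above all others and CGE E18.5 arrays below all others. The fall with CGE maturation was -1.47 ± 0.18, or 2.78-fold (limma, adjusted p = 0.0015), and Gabra2 was lower in MGE cells in the early lineage comparison, by -0.79 ± 0.18 (adjusted p = 0.0157). That early call was lost without MGE E14.5 replicate 1 or 2 (adjusted p = 0.0681 and 0.0761). At E18.5 the lineage difference was 0.50 ± 0.18 and was not called (adjusted p = 0.0701). It was called without MGE E14.5 replicate 3 or CGE E18.5 replicate 1 (adjusted p = 0.039 and 0.0243), and in the fit of all probe sets 1 of the 3 was higher, by 0.41 (adjusted p = 0.0492). The change of the lineage difference was 1.29 ± 0.26 (adjusted p = 0.00758). All 3 probe sets of Gabra2 were called in the early lineage comparison, in CGE maturation and for the change of the lineage difference. The dimmest of the 3 exceeded the filter level on the CGE E16.5 arrays alone, where it averaged 7.82, so its differences are set against dim values.

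Gabra3, the alpha3 subunit, an X-linked gene also used early in development, gave 7.71, 7.58 and 8.15 in MGE E18.5 cells and 7.69, 7.28 and 7.36 in MGE E14.5 cells. Its values were 5.92, 4.89 and 6.73 in CGE E18.5 cells and 7.45, 6.94 and 7.13 in CGE E16.5 cells. The CGE E18.5 arrays were the lowest and the most spread, and the only ones that all lay under the filter level. Gabra3 was higher in MGE cells in the late lineage comparison, by 1.96 ± 0.36 or 3.90-fold (limma, adjusted p = 0.00195), and its fall with CGE maturation was -1.32 ± 0.36 (adjusted p = 0.0367). That call was lost under 12 of 19 alternatives: with dim values raised to the filter level it was -0.09 (adjusted p = 0.792), and without CGE E18.5 replicate 2 it was -0.85 (adjusted p = 0.0864). With dim values raised, the late lineage difference was 0.68 and still called (adjusted p = 0.00982). With MGE maturation Gabra3 differed by 0.37 ± 0.36 (95% interval -0.41 to 1.15, not called), and the change of the lineage difference was 1.69 ± 0.51 (adjusted p = 0.0626). In the fit of all probe sets, its second probe set had a late lineage difference of 1.83 (adjusted p = 0.00464) and a CGE maturation difference of -1.23 (adjusted p = 0.0668).

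Of the beta subunits, only Gabrb2 was bright enough to test. It encodes beta2, which in the adult brain pairs widely with alpha1. Gabrb2 gave 9.60, 9.53 and 9.66 in MGE E18.5 cells and 9.0, 8.91 and 8.97 in MGE E14.5 cells, against 8.60, 8.36 and 8.92 in CGE E18.5 cells and 8.55, 8.80 and 8.93 in CGE E16.5 cells. The MGE E18.5 arrays were above all others. The late lineage difference was 0.97 ± 0.15, or 1.96-fold (limma, adjusted p = 0.000551), and with MGE maturation it rose by 0.64 ± 0.15 (adjusted p = 0.00977). All 5 probe sets of Gabrb2 were called in both, by 0.92 to 1.17 in the late lineage comparison and by 0.64 to 0.94 with MGE maturation. The dimmest of the 5 did not pass the filter. The early lineage difference of Gabrb2, read by its brightest probe set, was 0.20 ± 0.15 (adjusted p = 0.473). Its change of the lineage difference was 0.77 ± 0.21 (adjusted p = 0.0409), a call lost without any of 10 of the 12 arrays (adjusted p up to 0.103). In the fit of all probe sets, the change for the dimmest was 1.00 and was not called (limma, adjusted p = 0.119).

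Gabrb1, the beta1 subunit, stayed dim. Its brightest probe set gave 5.15, 5.80 and 5.87 in MGE E18.5 cells and 5.02, 5.0 and 5.45 in MGE E14.5 cells, against 4.98, 4.95 and 5.99 in CGE E18.5 cells and 5.32, 5.28 and 4.85 in CGE E16.5 cells. The groups overlapped and all 12 arrays lay under the filter level. In the fit of all probe sets its 3 probe sets had differences of -0.20 to 0.53 in the late lineage comparison, and limma called them in no comparison, where the lowest unadjusted p was 0.123. Without detection calls, such dim values do not show whether Gabrb1 was expressed at all.

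**Figure D3:**
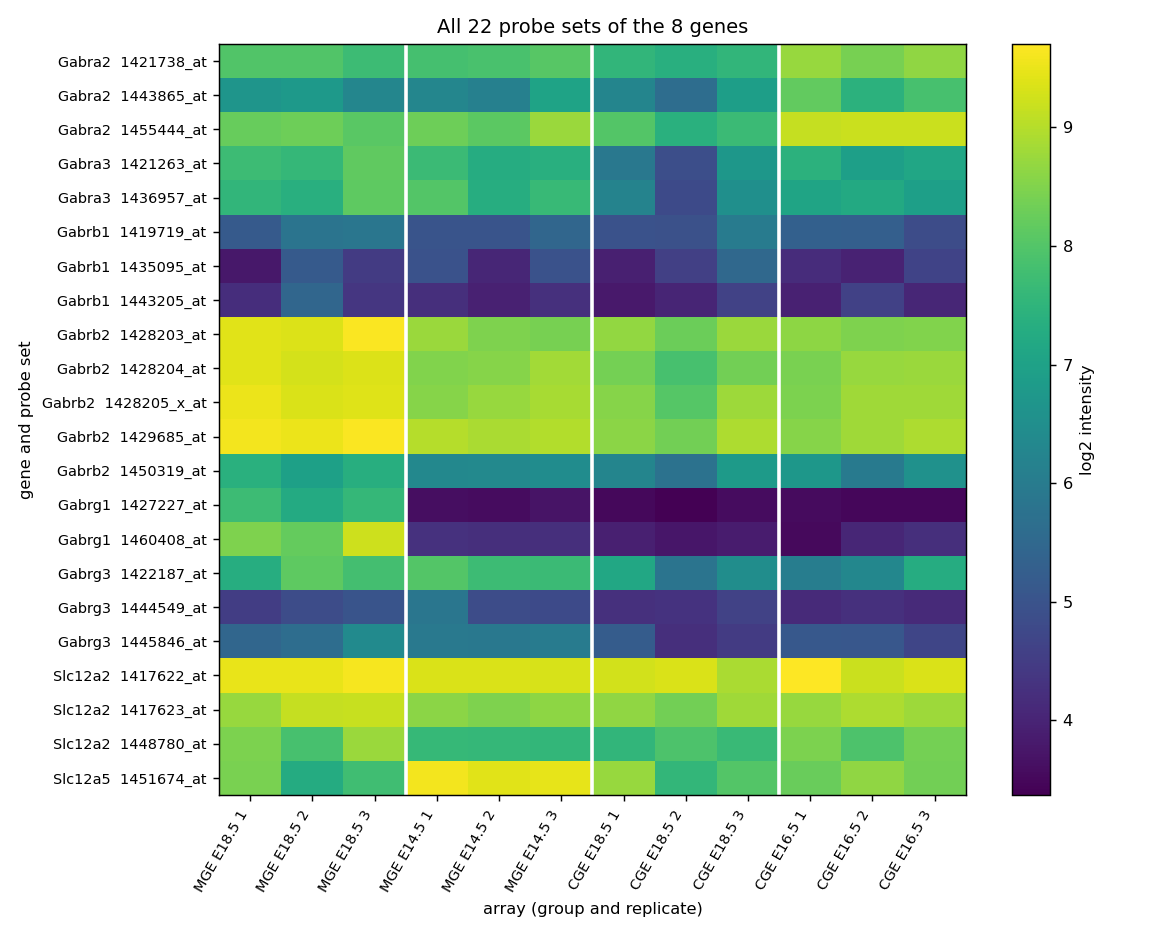
Log2 intensity, as colour, of each of the 22 probe sets of the 8 genes (down) on each of the 12 arrays (across, by group). Both probe sets of Gabrg1 were bright on the MGE E18.5 arrays alone, and the 3 of Gabrb1 were dim on all 12 arrays.

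Of the chloride transporters, Slc12a5 was called and Slc12a2 was not. Slc12a5, encoding the chloride extruder KCC2, fell as MGE cells matured. Slc12a5 gave 8.44, 7.27 and 7.76 in MGE E18.5 cells and 9.59, 9.43 and 9.48 in MGE E14.5 cells, against 8.73, 7.56 and 8.01 in CGE E18.5 cells and 8.24, 8.65 and 8.35 in CGE E16.5 cells. The MGE E14.5 arrays were above all others, and the E18.5 arrays of both lineages were more spread and overlapped. The fall with MGE maturation was -1.68 ± 0.31, or 3.2-fold (limma, adjusted p = 0.00244), with the pan GABAergic genes lower in the same comparison (6 of 7 called). Slc12a5 was higher in MGE cells in the early lineage comparison, by 1.08 ± 0.31 (adjusted p = 0.0438), a call lost under 9 alternatives (adjusted p up to 0.134). It had differences of -0.28 ± 0.31 in the late lineage comparison (95% interval -0.94 to 0.39) and -0.32 ± 0.31 with CGE maturation. The change of the lineage difference was -1.36 ± 0.43 (adjusted p = 0.0777). Slc12a5 was read by a single probe set.

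Slc12a2, encoding the chloride importer NKCC1, was the steadiest of the 7 tested genes over the 12 arrays. Slc12a2 gave 9.49, 9.48 and 9.62 in MGE E18.5 cells and 9.34, 9.33 and 9.31 in MGE E14.5 cells, against 9.28, 9.35 and 8.90 in CGE E18.5 cells and 9.70, 9.19 and 9.34 in CGE E16.5 cells. MGE E18.5 arrays lay above those of MGE E14.5 and CGE E18.5, by little. Its differences were 0.36 ± 0.15 in the late lineage comparison (limma, adjusted p = 0.112), 0.20 ± 0.15 with MGE maturation (adjusted p = 0.371) and -0.23 ± 0.15 with CGE maturation (adjusted p = 0.352), none of them called. Its 3 probe sets did not give the same calls. In the fit of all probe sets, 1 of them rose with MGE maturation, by 0.76 (adjusted p = 0.0294), with a change of the lineage difference of 1.31 (adjusted p = 0.02), and with the mean of its probe sets Slc12a2 was called in the late lineage comparison (0.47, adjusted p = 0.0119) and MGE maturation (0.47, adjusted p = 0.0129). On each array, the Slc12a5 value minus that of the Slc12a2 probe set was -1.71 ± 0.59 in MGE E18.5 cells, 0.17 ± 0.08 in MGE E14.5 cells, -1.08 ± 0.64 in CGE E18.5 cells and -0.99 ± 0.46 in CGE E16.5 cells (SD, n = 3 each). This value sets different probes against each other, so only its order between groups can be read: it was highest in MGE E14.5 cells, whose arrays lay at 0.10 to 0.25, and the other groups overlapped. It was also highest in MGE E14.5 cells with either other Slc12a2 probe set, at 0.93 ± 0.08 and 1.91 ± 0.07.

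Gabrg1 and Gabra2 are neighbouring protein-coding genes on chromosome 5, followed by Cox7b2, Gabra4 and Gabrb1, and yet Gabrg1 was high in MGE E18.5 cells and Gabra2 in CGE E16.5 cells. Their promoters are shown beside that of Slc12a5 because these 3 genes held the largest maturation changes. RefSeq promoter windows on GRCm38.p6, of 250 bases before and 50 after a gene's start, were matched for 7 of the 8 genes, all but Slc12a2. The windows are chr5:70842568-70842867 on the minus strand for Gabrg1, chr5:71095800-71096099 on the minus strand for Gabra2 and chr2:164960596-164960895 on the plus strand for Slc12a5, each written 5′ to 3′ on its own strand with CpG dinucleotides in capitals.
Gabrg1: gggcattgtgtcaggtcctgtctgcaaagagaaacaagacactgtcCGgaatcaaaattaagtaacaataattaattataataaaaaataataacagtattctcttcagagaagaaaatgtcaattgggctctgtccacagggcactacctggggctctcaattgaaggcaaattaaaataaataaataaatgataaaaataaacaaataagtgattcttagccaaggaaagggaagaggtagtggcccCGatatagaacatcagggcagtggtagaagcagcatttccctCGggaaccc
Gabra2: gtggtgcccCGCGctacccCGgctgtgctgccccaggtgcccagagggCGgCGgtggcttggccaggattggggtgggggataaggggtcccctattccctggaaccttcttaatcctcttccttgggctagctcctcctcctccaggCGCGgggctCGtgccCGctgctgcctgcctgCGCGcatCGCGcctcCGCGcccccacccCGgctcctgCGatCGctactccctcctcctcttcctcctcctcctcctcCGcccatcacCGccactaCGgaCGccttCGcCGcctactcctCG
Slc12a5: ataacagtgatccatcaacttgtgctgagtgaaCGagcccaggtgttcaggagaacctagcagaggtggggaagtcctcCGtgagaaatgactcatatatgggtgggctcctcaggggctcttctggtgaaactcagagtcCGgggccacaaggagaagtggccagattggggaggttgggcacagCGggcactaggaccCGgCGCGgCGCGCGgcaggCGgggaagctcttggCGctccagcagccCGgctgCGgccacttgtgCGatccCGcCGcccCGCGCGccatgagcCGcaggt
The Gabrg1 window held 3 CpG and 38.3% GC, against 25 CpG and 70.0% GC in that of Gabra2. The Slc12a5 window shown held 21 CpG and 63.7% GC. Another Slc12a5 window, chr2:164967738-164968037, is not shown and held 21 CpG and 68.3% GC. Over 32851 windows the median was 7 CpG and 52.7% GC. Fewer CpG than in the Gabrg1 window were found in 23.3% of windows, fewer than in the Gabra2 window in 81.6% and fewer than in the Slc12a5 window in 75.2%. These counts are a description of the letters and were set against no expression value.

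Other genes had profiles close to those of the tested genes over the 12 arrays, measured as the root mean square log2 distance between profiles centred on their own means, among 8795 genes. For Gabrg1, whose own profile had a root mean square of 2.03, the nearest were Car8 (0.16), Il1rap (0.21) and Gfra1 (0.21). For Gabra3 (own 0.85) they were Adgrl3 (0.22), Dpp6 (0.23) and Arhgap44 (0.32), and for Gabra2 (own 0.56) Pnmal2 (0.20), Fgf12 (0.25) and 6430548M08Rik (0.26). For Gabrb2 (own 0.40) they were Fam199x, Lman1 and Sppl2a, at 0.15 to 0.16, and for Gabrg3 (own 0.76) Ptp4a3 (0.24), Hivep3 (0.29) and Pnmal1 (0.31). Slc12a5 (own 0.73) had Clmp (0.33), BC030500 (0.36) and Scube3 (0.36) nearest, and Slc12a2 (own 0.20) had Slc35a5 (0.10), Ankfy1 (0.11) and Mfap3 (0.12). For a flat profile such as that of Slc12a2 a short distance is given by any flat gene.

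The wider GABA pathway moved gene by gene. Of 13 other GABA-A subunits 2 were in the table, Gabra4 and Gabra5, and both were dim, with group means of 3.88 to 4.08 for Gabra4 and 3.90 to 5.11 for Gabra5. Among 17 tested genes of receptor anchoring and trafficking, 4 were higher and 1 lower in MGE cells in the late lineage comparison. Over all genes 13.0% were higher and 9.85% lower. The median of the 17 was 0.17 against -0.02 over all genes. Shisa7, an auxiliary subunit of the receptor, was higher by 1.49 (limma, adjusted p = 0.00327), and Gphn, the gephyrin scaffold of inhibitory synapses, by 0.72 (adjusted p = 0.0154). Plcl1, a binding partner in receptor trafficking, was lower by -1.91 (adjusted p = 8.95e-06). In the early lineage comparison 1 of the 17 was higher, Trak1 by 1.01 (adjusted p = 0.000985), and 2 lower, Slitrk3 by -1.31 (adjusted p = 0.000702) and Plcl1 by -1.28 (adjusted p = 0.000499). With MGE maturation Slitrk3, a synaptic adhesion protein, rose by 0.90 (adjusted p = 0.00527), Plcl1 rose by 0.79 (adjusted p = 0.00762) and Iqsec3 fell by 0.83 (adjusted p = 0.0196). With CGE maturation Plcl1 was the 1 gene of the 17 called and rose by 1.42 (adjusted p = 0.00138). The change of the lineage difference was called for Shisa7, at 1.49 (adjusted p = 0.0463), and Slitrk3, at 0.95 (adjusted p = 0.0458). Over all genes it was called positive for 6.77% and negative for 1.88%. In the early lineage comparison 4.16% of all genes were higher and 5.90% lower. With MGE maturation 11.4% rose and 9.77% fell, and with CGE maturation 4.49% rose and 6.37% fell.

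**Figure D4:**
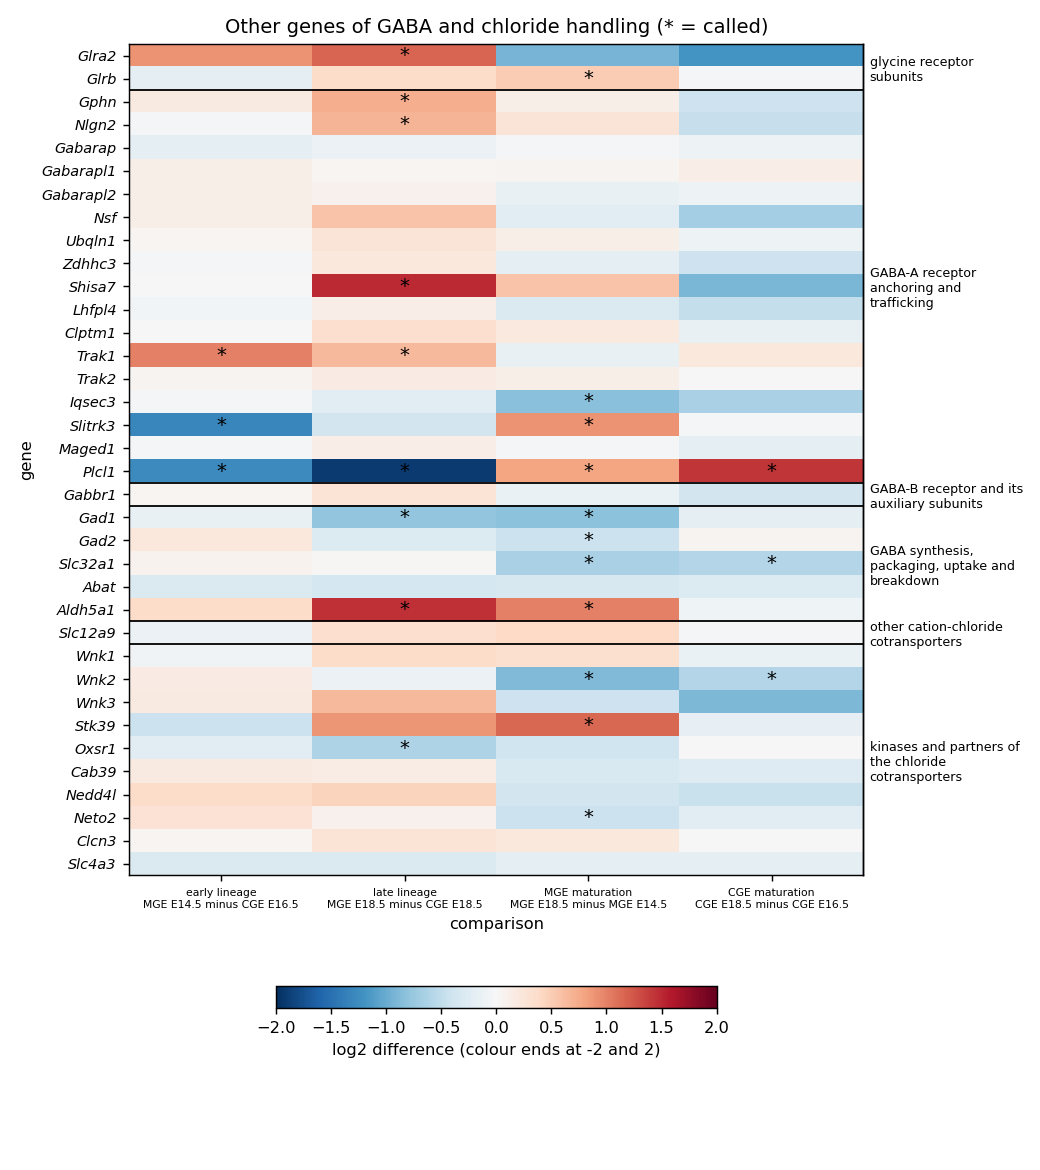
Log2 difference, as colour, of each tested gene of the pathway lists (down) in the lineage and maturation comparisons (across), with a star where the adjusted p from limma was under 0.05. Plcl1 lay lowest in the late lineage comparison, at -1.91, and Aldh5a1 and Shisa7 were high, at 1.46 and 1.49.

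Of 5 tested genes for GABA synthesis, packaging, uptake and breakdown, 1 was lower and 1 higher in MGE cells in the late lineage comparison. Over all genes 9.85% were lower and 13.0% higher. Gad1, which makes GABA, was lower by -0.79 (limma, adjusted p = 0.00787), while Aldh5a1, which completes GABA breakdown, was higher by 1.46 (adjusted p = 0.00097). With MGE maturation 3 of the 5 fell and 1 rose, with a median of -0.43 against -0.06 over all genes. Of all genes 9.77% fell and 11.4% rose. Gad1 fell by 0.82 (adjusted p = 0.00768) and Slc32a1, the vesicular GABA transporter, fell by 0.64 (adjusted p = 0.0196), while Aldh5a1 rose by 1.01 (adjusted p = 0.0114). With CGE maturation Slc32a1 fell by 0.59 (adjusted p = 0.0455), where 6.37% of all genes fell and 4.49% rose. Gad1 and Slc32a1 also stand in the pan GABAergic list above, so these counts are not separate from it.

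Partners of the cotransporters and the glycine receptor were called gene by gene, in lists too short for their counts to be read. Of 10 tested kinases and partners, Oxsr1, a kinase that acts on the cotransporters, was lower in the late lineage comparison, by -0.61 (limma, adjusted p = 0.0103). With MGE maturation Stk39, a related kinase that activates NKCC1, rose by 1.15 (adjusted p = 0.0191), while Wnk2, a kinase upstream of both, fell by 0.88 (adjusted p = 0.000115) and Neto2, a KCC2 partner, fell by 0.43 (adjusted p = 0.032). With CGE maturation Wnk2 fell by 0.59 (adjusted p = 0.00774). Over all 8795 genes, 13.0% were higher and 9.85% lower in the late lineage comparison. With MGE maturation 11.4% of them rose and 9.77% fell, and with CGE maturation 4.49% rose and 6.37% fell. The median over the 10 genes was 0.20 in the late lineage comparison and -0.33 with MGE maturation, against -0.02 and -0.06 over all genes. Of 2 tested glycine receptor subunits, Glra2, the embryonic alpha2 subunit, was higher in MGE cells in the late lineage comparison by 1.16 (adjusted p = 0.0361), and Glrb rose with MGE maturation by 0.50 (adjusted p = 0.0323). The 1 GABA-B gene tested, Gabbr1, and the 1 other cotransporter, Slc12a9, were called by limma in no comparison, with adjusted p of 0.0686 or more for Gabbr1 and 0.224 or more for Slc12a9.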

How the data were processed

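Gene expression was measured on 12 Affymetrix Mouse430_2 arrays of sorted cells whose RNA had been extracted with an RNeasy kit and amplified with the NuGEN Ovation Pico system. The authors deposited log2 values that had been background-corrected and normalised with Bioconductor. MAS5 stands, with no version, in the submitters' processing notes, so the algorithm is not settled. They lay between 3.23 and 14.97, with array medians of 7.75 to 7.81. Detection calls were not used. Arrays have no read depth, and their number limits the precision.

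Of 27094 probe sets, 34 controls, 571 with several symbols and 4150 with none in the platform annotation were left out. Group differences came from limma 3.58.1 (R 4.3.3), with 1 mean per group over all arrays (8 residual and 3.60 prior degrees of freedom), two-sided, with Benjamini-Hochberg adjustment over all 8795 genes, or over all 22339 probe sets, within each comparison; calls were made at an adjusted p under 0.05. The script was tested on simulated data. All 8 genes were described. From each pathway list the called genes were named, at most 3 per comparison by size of difference, from each marker list up to 3 defining genes in listed order, and for each gene the 3 nearest profiles. The genes and lists were chosen with earlier results of these data known. Alternatives changed the filter, the probe set rule, the array scaling, the arrays fitted and the replicate block.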

Additional observations from a re-analysis of the deposited data

Results flagged for a closer look

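The lineage difference changed between the early and the late comparison, by a test of that change, for 3 genes. It was 4.49 ± 0.33 (SE) for Gabrg1 (limma, adjusted p = 4.43e-06), or 1.48 (adjusted p = 0.00421) with dim values raised to the filter level, since 3 of its 4 groups lay under that level. It was 1.29 ± 0.26 for Gabra2 (adjusted p = 0.00758) and 0.77 ± 0.21 for Gabrb2 (adjusted p = 0.0409), with 3 arrays in each of the 4 groups. The Gabrb2 call was lost under 11 of 18 alternatives (limma, adjusted p up to 0.103). The early comparison sets E14.5 against E16.5, so lineage and day cannot be told apart in it. The oligodendrocyte precursor list changed in the same direction, with 12 of 13 genes called and a median of 3.84, and its part in these values was not tested.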

How the results depend on the processing

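Each of the 35 results on single genes was refitted under up to 19 alternatives, which gave 658 values. Of these, 604 kept the side of the threshold, 38 lost a call, 16 gained one and 0 changed the direction of a called value. The 604 include uncalled values whose sign changed. With MGE maturation, for example, Gabrg3 was -0.05 in the main fit and up to 0.16 in the alternatives. The number of tested genes called higher in the early lineage comparison, 1, was 2 with array weights, with the mean of the kept probe sets, with dim values raised to the filter level and with only the compared groups in the fit, and 0 with no filter, where more genes were tested. It was 0 to 2 when 1 array was left out, and the number called lower, 1, was 0 to 1. The number called lower with CGE maturation, 2, was 1 with array weights, with dim values raised and with only the compared groups, and 1 to 2 when 1 array was left out. The number with a negative change of the lineage difference, 0, was 0 to 1 when 1 array was left out. Slc12a5 gained that call without MGE E18.5 replicate 1 (-1.67, adjusted p = 0.0253) or CGE E18.5 replicate 2 (-1.63, adjusted p = 0.0329). Over all 8795 genes, calls numbered 885 in the early lineage comparison, 1866 with MGE maturation and 955 with CGE maturation, against 1814, 3490 and 543 with array weights. With only the compared groups, CGE maturation gave 175. When 1 array was left out, the counts beyond 1.5 times from these were 532 and 561 in the early lineage comparison, without MGE E14.5 replicate 1 or 2, and with MGE maturation 1220 and 1211 without the same arrays and 1168 without MGE E18.5 replicate 3. With CGE maturation they were 470 without CGE E18.5 replicate 2 and 374 without CGE E16.5 replicate 3. The cause was not tested.

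Replicate numbers did not pair the samples: of 18 correlations between deviations of same-numbered arrays, which ran from -0.17 to 0.28, 4 were above 0.1, and 4 of the 12 arrays were closest to their own number. With the replicate block the tested genes called higher and lower were 1 and 1 in the early lineage comparison, 4 and 0 in the late one, 2 and 1 with MGE maturation, 0 and 2 with CGE maturation and 4 and 0 for the change. The block changed 1 call, that of Gabra3 for the change of the lineage difference (adjusted p = 0.0333). Values under the filter level limit what can be read of Gabrg1, Gabra3, Gabrg3 and Gabrb1, and of the dimmest probe sets of Gabra2 and Gabrb2.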
